A study of Homo sapiens with 8 samples.

Results

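LURAP1L, HEPHL1 and CACHD1 are 3 of the 14884 genes measured on these arrays, and they were picked by name because they lay higher with a hairpin against RING1B than with a control hairpin. Their values under that hairpin therefore describe the choice and test nothing. What can be examined is how the same genes stood under hairpins against 2 other Polycomb proteins, EZH2 and BMI1. In these arrays LURAP1L and HEPHL1 rose with the EZH2 hairpin and lay close to the control with the BMI1 hairpin. CACHD1 lay higher with the BMI1 hairpin and, by less, with the EZH2 hairpin, and neither difference passed the test.

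The cells carried the cell line label SCC13, an established line from a squamous cell carcinoma of human skin, and RNA was measured on 8 arrays in 4 groups of 2. The groups carried short hairpin RNAs (shRNA) against RING1B (shRING1B), EZH2 (shEZH2), BMI1 (shBMI1) or, as the control, the jellyfish protein GFP (shGFP). The 2 shEZH2 arrays have titles starting with SCCL3 and the other 6 have titles starting with SCC13, and the EZH2 hairpin cannot be told apart from a second line or from any batch the prefix may stand for. Over all genes the shEZH2 arrays correlated with those of other hairpins at 0.992 to 0.993, against 0.9931 to 0.9959 among the other 3 hairpins and 0.9945 to 0.9959 within a hairpin. Nothing in the labels says that the arrays of one hairpin came from separate cultures, so the spread behind each p-value may be only technical. The labels also do not give the number of hairpin sequences per target, the way the hairpins were delivered or the time after delivery. Values are log2 expression after RMA, a method that gives all arrays the same overall distribution, which hides any shift common to most genes.

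Polycomb proteins keep genes silent through marks on histones. RING1B, encoded by RNF2, is the enzyme of Polycomb repressive complex 1 (PRC1) that ubiquitinates histone H2A, and BMI1 is a partner found in some forms of that complex. EZH2 is the methyltransferase of Polycomb repressive complex 2 (PRC2), which acts on histone H3. The 3 genes have unrelated jobs. LURAP1L encodes a small leucine-rich adaptor protein and is the closest relative of LURAP1, which links MRCK kinases to the myosin MYO18A and has been reported to activate NF-kB. HEPHL1 encodes hephaestin-like 1, also called zyklopen, a copper-dependent enzyme that oxidises ferrous to ferric iron as hephaestin and ceruloplasmin do. Rare human variants of it affect hair. CACHD1 encodes a membrane protein related to the auxiliary subunits of voltage-gated calcium channels that the CACNA2D genes encode.

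The genes lie on different chromosomes of the human genome, given here in the RefSeq annotation of GRCh38.p14. LURAP1L spans chr9:12775020-12823060, HEPHL1 spans chr11:94021354-94114208 and CACHD1 spans chr1:64470129-64693053, all on the + strand. In mammalian cells Polycomb complexes are found mostly at promoters rich in CpG dinucleotides, so the RefSeq promoter windows are shown, from 250 bases before the annotated start of the gene to 50 bases after it. Each CG is in capitals. The windows are chr9:12774770-12775069, chr11:94021104-94021403 and chr1:64469879-64470178, all on the + strand.
LURAP1L: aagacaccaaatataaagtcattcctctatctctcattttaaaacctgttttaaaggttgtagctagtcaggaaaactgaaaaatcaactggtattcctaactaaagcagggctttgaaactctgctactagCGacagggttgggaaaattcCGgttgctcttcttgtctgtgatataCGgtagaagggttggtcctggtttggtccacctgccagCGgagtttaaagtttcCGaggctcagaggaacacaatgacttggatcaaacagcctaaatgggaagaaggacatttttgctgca
HEPHL1: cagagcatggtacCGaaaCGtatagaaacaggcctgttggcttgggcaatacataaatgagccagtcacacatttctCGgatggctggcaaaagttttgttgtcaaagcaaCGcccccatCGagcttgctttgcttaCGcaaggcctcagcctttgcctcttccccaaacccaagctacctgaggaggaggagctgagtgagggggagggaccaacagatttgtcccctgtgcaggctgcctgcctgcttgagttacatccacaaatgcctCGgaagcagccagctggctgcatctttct
CACHD1: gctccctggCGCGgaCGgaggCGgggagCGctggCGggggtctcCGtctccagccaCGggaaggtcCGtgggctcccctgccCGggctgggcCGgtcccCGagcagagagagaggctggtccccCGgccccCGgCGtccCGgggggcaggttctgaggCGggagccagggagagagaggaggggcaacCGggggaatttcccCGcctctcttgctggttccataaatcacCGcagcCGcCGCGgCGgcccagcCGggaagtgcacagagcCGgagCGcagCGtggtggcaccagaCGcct

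The 3 windows differed in base composition. LURAP1L had 5 CpG in 300 bases with 42.3% G and C, and HEPHL1 had 7 CpG with 53.3%. CACHD1 had 29 CpG with 74.0%. Over the 10749 measured genes with a window in the RefSeq table the median was 23 CpG (quartiles 10 and 32). Of those windows, 15.0% held fewer CpG than that of LURAP1L, 19.6% fewer than that of HEPHL1 and 66.0% fewer than that of CACHD1. The ratio of observed to expected CpG was 0.375 in LURAP1L, 0.328 in HEPHL1 and 0.713 in CACHD1, with a median of 0.777 over all windows. No binding or histone data were analysed here.

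**Figure D1:**
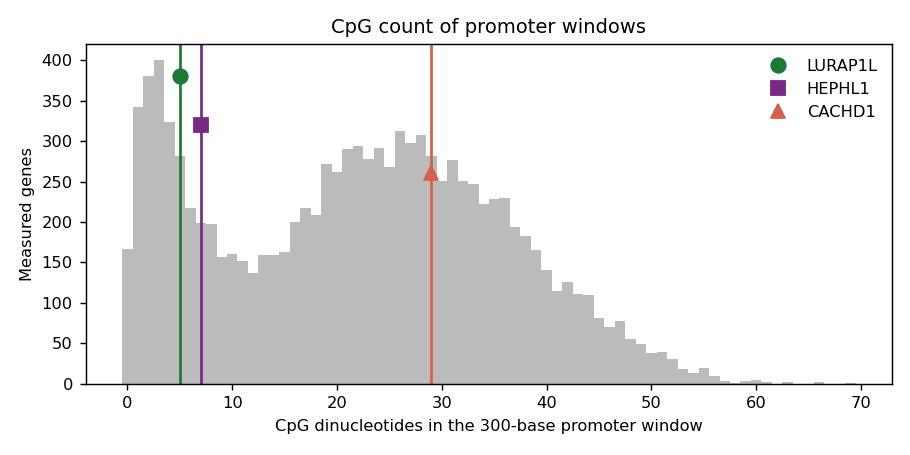
Number of measured genes (y axis) by CpG dinucleotides in their 300-base promoter window (x axis), with the 3 genes marked by coloured lines (the height of a marker has no meaning). LURAP1L (5) and HEPHL1 (7) lie below the lower quartile of all windows (10), and CACHD1 (29) lies between the median (23) and the upper quartile (32).

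Short motifs were searched on both strands of these windows, with overlapping matches allowed. The letters TATAAA matched 1 time in LURAP1L, from position -239 relative to the annotated start, and 8.5% of windows held them. No match was found in the 3 windows for AP-1 (TGANTCA, in 5.9% of windows), the cAMP response element (TGACGTCA, 2.6%), the CCAAT box (CCAAT, 36.0%) or the GC box (GGGCGG, 60.5%). A match is only these letters in this window.

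Before the results, the arrays were checked against their labels. EZH2 mRNA was at 8.95 and 9.03 on the shEZH2 arrays, against 9.83 and 9.97 on the shGFP arrays, and fell by 0.91 ± 0.12 (SE) on the log2 scale (limma adjusted p = 0.0183). That call was lost without any one of the shEZH2 or shGFP arrays (adjusted p 0.0864 to 0.179) and over all probe sets (0.116). No probe set carried the symbol RNF2 or BMI1 in the annotation used, so the knockdowns of RING1B and BMI1 were not checked. Of 12 keratinocyte markers 5 were measured (KRT5, KRT14, DSG3, DSC3 and SFN), and their mean levels lay between 7.56 and 11.49. Their summed log2 level was 47.46 to 47.65 with shRING1B, 48.47 to 48.74 with shEZH2, 48.57 to 48.78 with shBMI1 and 49.13 to 49.20 with shGFP. The fibroblast markers DCN, LUM and THY1 summed to 17.76 to 17.97, 18.79 to 19.41, 17.87 to 18.50 and 17.20 to 17.64 in the same order of hairpins. DCN rose with shEZH2 against shGFP (0.93, adjusted p = 0.0109), as did the melanocyte marker MLANA (0.64, adjusted p = 0.046), but DCN missed the threshold without any one of the 4 arrays compared (0.0519 to 0.135) and MLANA without any one of them (0.201 to 0.281). MLANA also missed it without either shRING1B array (0.0795), with a replicate block (0.0638), with only the 4 arrays compared (0.0597), after quantile normalization (0.0618) or median centring (0.0512) and over all probe sets (0.204). DCN too missed the threshold over all probe sets (limma adjusted p = 0.0958). MLANA was dim, with a mean level of 4.47, below the array medians of 5.49 to 5.52. The summed melanocyte level (5 of 6 measured) was 25.65 to 26.31, 26.22 to 26.53, 25.41 to 26.22 and 25.57 to 25.84. Of 4 measured leukocyte and 4 endothelial markers, 0 passed in any tested comparison. Over all genes, 0.558% were higher and 0.175% lower with shEZH2 against shGFP, and 0% passed with shBMI1 against shGFP. With shEZH2 against shBMI1, 0.692% of all genes were higher. Among the keratinocyte markers, DSG3 rose with shEZH2 against shBMI1 (0.91, adjusted p = 0.022). The part of other cell types in the results was not tested. In bulk RNA, more cells of a type and more RNA per cell cannot be told apart.

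LURAP1L, the adaptor, stood highest on the shEZH2 arrays. Its log2 level was 7.41 and 7.60 with shRING1B, 8.14 and 8.11 with shEZH2, 6.81 and 6.90 with shBMI1, and 6.75 and 6.75 with shGFP. The groups did not overlap. In falling order they ran shEZH2, shRING1B, shBMI1 and shGFP, in steps of 0.61, 0.65 and 0.11. The share of all genes with the 4 groups apart was not counted. The 2 shRING1B arrays differed by 0.19, the largest gap between replicates of this gene, and the difference from shGFP was 0.66 without shRING1B replicate 2 and 0.85 without shRING1B replicate 1.

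HEPHL1, the ferroxidase, had the same order of groups. It was at 6.53 and 6.46 with shRING1B, 6.71 and 6.83 with shEZH2, 5.78 and 5.66 with shBMI1, and 5.71 and 5.59 with shGFP. The shRING1B and shEZH2 arrays lay above all 4 arrays of shBMI1 and shGFP by at least 0.68, and the shBMI1 and shGFP arrays overlapped. The lowest shEZH2 array lay 0.18 above the highest shRING1B array. The share of all genes with these separations together was not counted.

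CACHD1, the calcium channel relative, had another order. Its level was 7.61 and 7.69 with shRING1B, 7.22 and 7.18 with shEZH2, 7.45 and 7.46 with shBMI1, and 7.01 and 6.89 with shGFP. In falling order the groups ran shRING1B, shBMI1, shEZH2 and shGFP, in steps of 0.19, 0.26 and 0.25. No 2 groups overlapped, and the smallest gap between arrays of neighbouring groups was 0.16, between shRING1B and shBMI1. The share of all genes with the 4 groups apart was not counted. The 2 shBMI1 arrays differed by 0.0004, and the 2 shGFP arrays by 0.12.

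**Figure D2:**
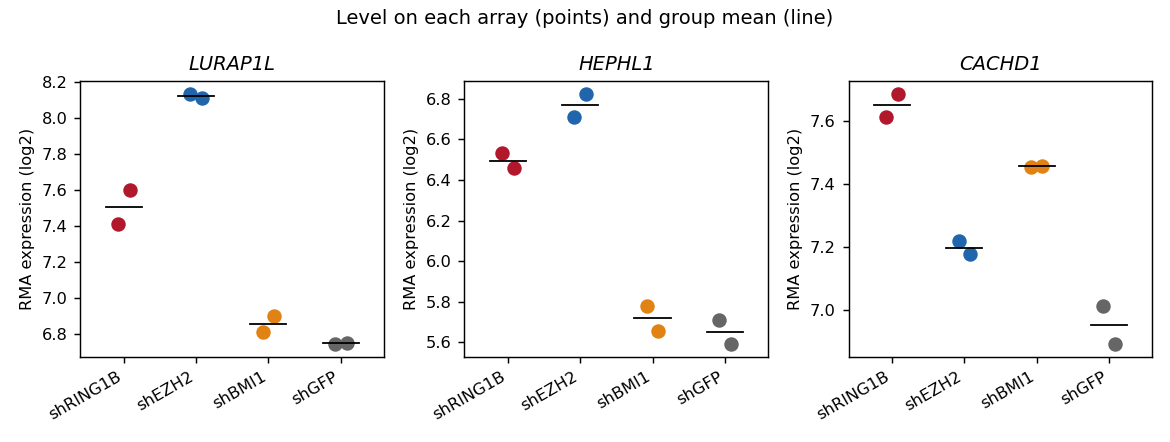
RMA expression (log2, y axis, which does not start at 0) of the 3 genes on each array (points) by hairpin group (x axis), with the mean of each group as a line. LURAP1L and HEPHL1 are high with shRING1B and shEZH2 and lie near the control with shBMI1, while CACHD1 is highest with shRING1B, followed by shBMI1, shEZH2 and shGFP.

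The spread between replicate arrays was small for the 3 genes. The residual SD over the 4 groups was 0.075 for LURAP1L, 0.077 for HEPHL1 and 0.052 for CACHD1, against a median of 0.113 over all genes. The test used a spread moderated across all genes, which gave standard errors of 0.09 for each of the 3.

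Against the control, the differences that chose the genes were similar in size. With shRING1B, LURAP1L was 0.76 ± 0.09 (SE, n = 2 per group) higher than with shGFP on the log2 scale, HEPHL1 0.84 ± 0.09 and CACHD1 0.70 ± 0.09. These are 1.69-fold, 1.80-fold and 1.62-fold. They stood at ranks 28, 14 and 36 of the 14884 differences from the top. In this comparison 0% of genes passed the adjusted threshold by limma (0 genes, with 1280 at an unadjusted p under 0.05). Both shRING1B arrays lay above both shGFP arrays in all 3 genes and in 18.2% of all genes.

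The first question is which of the 3 were shared with the EZH2 hairpin. Of the 3, LURAP1L and HEPHL1 rose with shEZH2, and 0.558% of all genes did so (83 genes). LURAP1L averaged 8.12 ± 0.02 with shEZH2 and 6.75 ± 0.005 with shGFP (SD, n = 2 each), 2.59-fold higher (log2 1.37, 95% interval 1.15 to 1.59; limma adjusted p = 0.00326). Only 0.0537% of genes had a larger increase. HEPHL1 averaged 6.77 ± 0.08 with shEZH2 and 5.65 ± 0.08 with shGFP (SD, n = 2 each), 2.17-fold higher (log2 1.12, interval 0.90 to 1.34; limma adjusted p = 0.00489). CACHD1 did not pass: it averaged 7.20 ± 0.03 with shEZH2 and 6.95 ± 0.08 with shGFP (SD, n = 2 each), a log2 difference of 0.25 (interval 0.05 to 0.44; limma adjusted p = 0.225). Both shEZH2 arrays lay above both shGFP arrays in all 3 genes and in 23.1% of all genes. This comparison shares the shGFP arrays with the one that chose the genes, so low control values raise both. Without shEZH2 replicate 1 or shEZH2 replicate 2, 0 genes passed in all (adjusted p = 0.0805 and 0.069 for both LURAP1L and HEPHL1), and HEPHL1 also missed the threshold without shGFP replicate 2 (0.0519) and over all probe sets (0.0695).

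The second question is which were shared with the BMI1 hairpin, and 0 of the 3 passed, as did 0% of all genes by limma (0 genes, with 830 at an unadjusted p under 0.05). CACHD1 averaged 7.455 with shBMI1, its arrays all but equal, and 6.95 ± 0.08 with shGFP (SD, n = 2), a 1.42-fold higher level (log2 0.50, 95% interval 0.30 to 0.70; limma adjusted p = 0.316). It stood at rank 72, with 0.477% of genes further up. LURAP1L was at 0.11 (interval -0.11 to 0.32; adjusted p = 0.998) and HEPHL1 at 0.07 (interval -0.15 to 0.29; adjusted p = 0.999). Both shBMI1 arrays lay above both shGFP arrays for LURAP1L and CACHD1 and for 14% of all genes. This comparison too shares the shGFP arrays with the one that chose the genes.

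**Figure D3:**
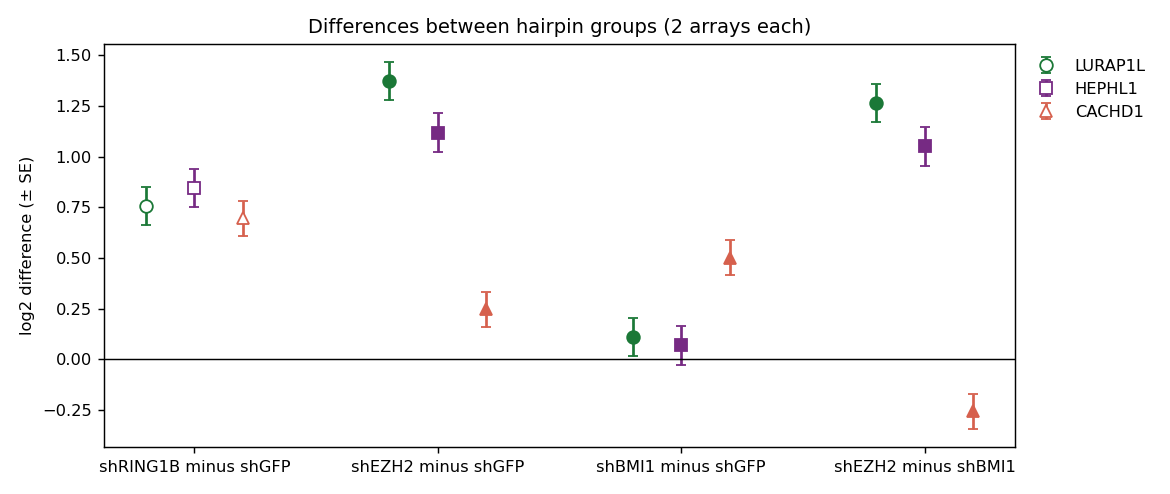
Log2 difference (y axis; bars are standard errors of the fit) of the 3 genes in 4 comparisons (x axis) of 2 arrays against 2. Open symbols mark the comparison that chose the genes, and filled symbols show LURAP1L and HEPHL1 high in both shEZH2 comparisons and near 0 in shBMI1 minus shGFP, where CACHD1 is at 0.50.

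The difference between shEZH2 and shBMI1 takes no level from the arrays that chose the genes, although the fit takes its spread from all 8 arrays. LURAP1L averaged 8.12 ± 0.02 with shEZH2 and 6.86 ± 0.06 with shBMI1 (SD, n = 2 each), 2.40-fold higher (log2 1.26, 95% interval 1.05 to 1.48; limma adjusted p = 0.00267). HEPHL1 was 2.07-fold higher (log2 1.05, interval 0.83 to 1.27; adjusted p = 0.00481), and 0.692% of all genes passed in this direction (103 genes). With only the 4 arrays compared, which also takes the spread from them alone, the adjusted p was 0.0161 for LURAP1L and 0.0283 for HEPHL1. CACHD1 lay the other way, at -0.26 (interval -0.45 to -0.06; adjusted p = 0.215), and did not pass. Both shEZH2 arrays lay above both shBMI1 arrays in 22.9% of all genes, LURAP1L and HEPHL1 among them, and below in 24.1%, CACHD1 among them. Without shEZH2 replicate 1 the adjusted p was 0.0555 for both LURAP1L and HEPHL1, where 2 genes passed in all. HEPHL1 was at 0.0715 without shEZH2 replicate 2 and at 0.0577 over all probe sets.

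**Figure D4:**
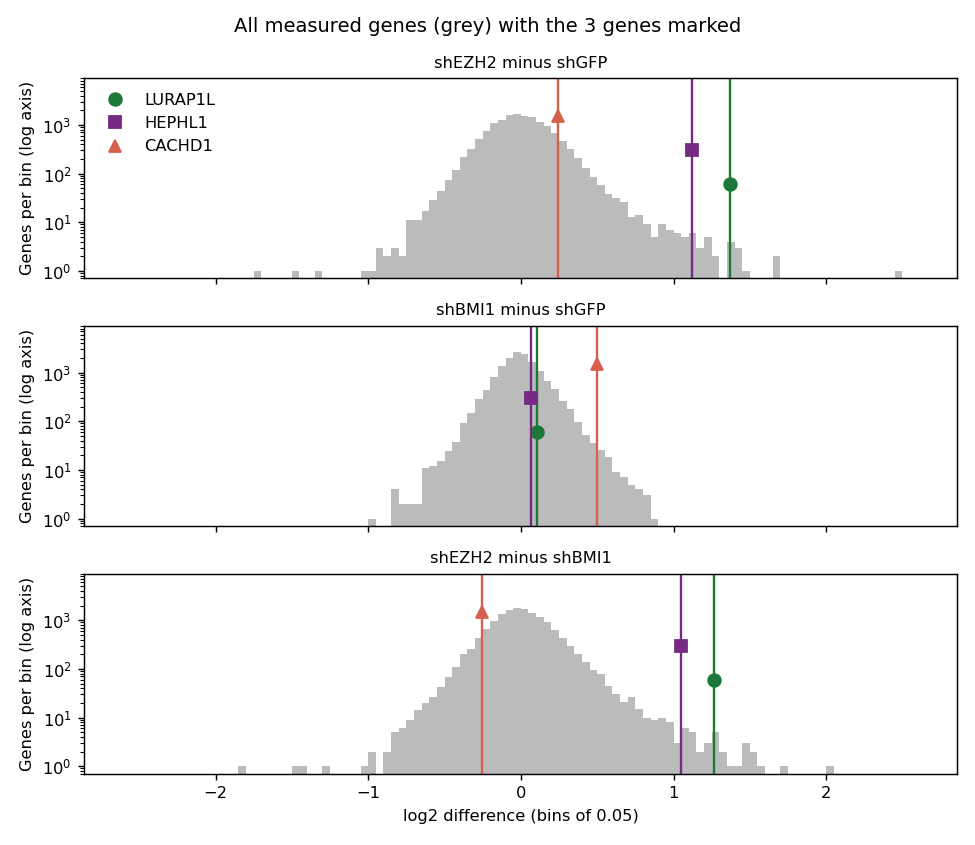
Number of measured genes (y axis, log scale) by log2 difference (x axis, bins of 0.05) in the 3 tested comparisons, with the 3 genes as coloured lines (the height of a marker has no meaning). LURAP1L and HEPHL1 lie in the upper tail of both shEZH2 comparisons, and CACHD1 in the upper tail of shBMI1 minus shGFP.

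The remaining differences between knockdowns use the shRING1B arrays and are given without a test. With shEZH2 against shRING1B, LURAP1L was 0.61 ± 0.09 (SE) higher, HEPHL1 0.27 ± 0.09 higher and CACHD1 at -0.45 ± 0.09. Both shEZH2 arrays lay above both shRING1B arrays in LURAP1L, HEPHL1 and 22.6% of all genes, and below them in CACHD1 and 25.6% of all genes. With shRING1B against shBMI1, LURAP1L was 0.65 ± 0.09 higher, HEPHL1 0.78 ± 0.09 higher and CACHD1 0.19 ± 0.09 higher, again without overlap, as in 19.3% of all genes.

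Across the 8 arrays LURAP1L and HEPHL1 had a Pearson correlation of 0.962. The correlation of CACHD1 was 0.195 with LURAP1L and 0.319 with HEPHL1. HEPHL1 ranked 9th among 11725 protein-coding genes in likeness to LURAP1L, and LURAP1L ranked 12th in likeness to HEPHL1. These are descriptions over 8 arrays that share 4 group levels, and the choice of genes that are high with shRING1B favours such likeness.

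The gene most like LURAP1L was the cytokine IL32 (r = 0.980), followed by HOXB9, a homeobox transcription factor (0.979), AHR, the aryl hydrocarbon receptor (0.978), the stress kinase gene EIF2AK3 (0.977) and KLHL5 (0.973). IL32 was at 7.62 and 7.57 with shRING1B, 8.19 and 8.03 with shEZH2, 7.11 and 7.28 with shBMI1, and 7.07 and 7.21 with shGFP. HOXB9 was at 9.29 and 9.09, 9.73 and 9.72, 8.70 and 8.67, and 8.59 and 8.62 in the same order of hairpins. For both, the shEZH2 arrays were highest and the shRING1B arrays next.

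HEPHL1 was most like ARFGAP3, which encodes a regulator of vesicle transport at the Golgi (r = 0.990). EIF2AK3 (0.977), the growth factor BMP2 (0.976), the epithelial cytokine TSLP (0.973) and the Notch ligand DNER (0.969) came next. ARFGAP3 covered only 0.33 on the log2 scale over all arrays, from 9.62 to 9.95, so a high correlation here does not mean a large difference. BMP2 was at 7.42 and 7.19 with shRING1B, 7.35 and 7.33 with shEZH2, 6.57 and 6.57 with shBMI1, and 6.60 and 6.49 with shGFP. In BMP2 the shRING1B and shEZH2 arrays overlapped.

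CACHD1 had other companions, namely RBM10, a splicing regulator (r = 0.964), SHISA8 (0.951), the transcription factors TBX18 (0.946) and KLF17 (0.937), and MEGF10 (0.929). RBM10 covered 0.23 on the log2 scale. SHISA8 was at 6.80 and 6.84 with shRING1B, 6.44 and 6.52 with shEZH2, 6.61 and 6.63 with shBMI1, and 6.27 and 6.37 with shGFP, the same order of groups as CACHD1. TBX18 covered 0.51, KLF17 0.49 and MEGF10 0.42. These genes were dim: TBX18 lay at 4.945 to 5.456 and KLF17 at 4.651 to 5.142, below the array medians of 5.49 to 5.52. MEGF10, at 5.213 to 5.635, lay around those medians.

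**Figure D5:**
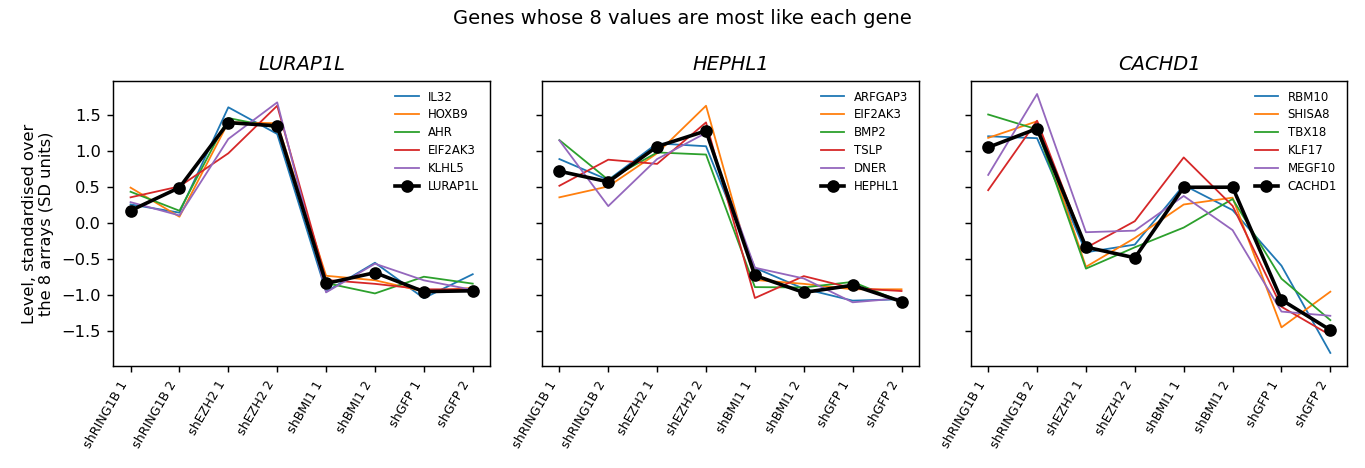
Levels standardised over the 8 arrays (SD units, y axis) by array (x axis) for each of the 3 genes (black) and the 5 protein-coding genes with the highest Pearson correlation to it (coloured), with lines only to guide the eye. The companions of LURAP1L and HEPHL1 fall off at shBMI1 and shGFP, and those of CACHD1 peak at shRING1B and are lowest at shGFP.

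Of the closest relatives of LURAP1L and HEPHL1, 0 passed in a tested comparison. With shEZH2 against shGFP 0.558% of all genes were higher and 0.175% lower, and with shBMI1 against shGFP 0% passed. LURAP1 was at 6.17 and 6.09 with shRING1B, 6.05 and 5.99 with shEZH2, 6.02 and 6.14 with shBMI1, and 5.85 and 5.88 with shGFP. All 6 knockdown arrays lay above both control arrays, but LURAP1 did not pass with shEZH2 (0.15 ± 0.09, adjusted p = 0.423) or shBMI1 (0.22 ± 0.09, adjusted p = 0.877). Both arrays lay above both shGFP arrays in 18.2% of all genes with shRING1B, 23.1% with shEZH2 and 14% with shBMI1. These comparisons share the shGFP arrays, and the share of genes with all of them together was not counted. HEPH, which encodes hephaestin, was at 0.26 ± 0.09 with shEZH2 (adjusted p = 0.217) and 0.11 ± 0.09 with shBMI1 (adjusted p = 0.986). CP, which encodes ceruloplasmin, was at -0.05 ± 0.17 and -0.06 ± 0.17 (adjusted p = 0.916 and 0.999). Both genes were dim: HEPH lay at 4.72 to 5.09 and CP at 3.69 to 4.41, below the array medians of 5.49 to 5.52. RMA compresses differences of dim probe sets, so these values say little. The CACNA2D genes, and the rest of a list of 26 calcium channel subunits, were not analysed here, since no probe set was paired with them.

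Of 36 genes of iron and copper handling, 19 were measured. With shEZH2 against shGFP, 1 rose and 0 fell, where 0.558% and 0.175% of all genes did, and the median difference was -0.01, as it was over all genes (-0.01). The gene that rose was STEAP4, a metalloreductase that reduces iron and copper. It was at 8.58 and 8.63 with shEZH2, against 7.78 and 7.28 with shGFP (log2 1.07 ± 0.15 SE, adjusted p = 0.0261), with 7.89 and 7.76 on the shRING1B arrays and 7.28 and 7.18 on the shBMI1 arrays. STEAP4 also passed with shEZH2 against shBMI1 (1.37 ± 0.15, adjusted p = 0.00845), as 1 of the 19, where 0.692% of all genes did. The related STEAP1 was at -0.72 ± 0.16 with shEZH2 and the transferrin relative MELTF at 0.56 ± 0.11, and neither passed (adjusted p = 0.0947 and 0.0851). In the shEZH2 and shGFP comparison the count was 0 without either shEZH2 array, without either shRING1B array, without shGFP replicate 2, with only the 4 arrays compared and over all probe sets. Against shBMI1 it was 0 without any one of the shEZH2 or shBMI1 arrays and over all probe sets. It was 6 in both comparisons when the dimmest 30% of genes were left out, where 409 and 445 of the remaining genes passed. With a trended robust variance it was 5 against shGFP and 6 against shBMI1, where 648 and 640 of all genes passed. Over protein-coding genes it was 2 and 5, where 169 and 320 passed, and with array weights 2 and 1, where 174 and 177 passed.

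With shBMI1 against shGFP, 0 of the 19 iron and copper genes passed in either direction, and 0% of all genes passed. Their median was -0.05, against -0.01 over all genes, and 16 of 19 values were negative. The share of all genes with a negative value was not counted. STEAP4 was at -0.30 ± 0.15, HMOX1, the haem-degrading enzyme, at -0.21 ± 0.10 and the iron carrier TF at 0.20 ± 0.15 (adjusted p = 0.928, 0.903 and 0.983).

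Of 12 genes listed as actomyosin partners of the LURAP1 family, 6 were measured, namely LURAP1, the MRCK kinase genes CDC42BPA, CDC42BPB and CDC42BPG, MYO18A and MYO18B. In each of the 3 tested comparisons 0 passed, where 0.558% of all genes were higher and 0.175% lower with shEZH2 against shGFP, 0% passed with shBMI1 against shGFP and 0.692% were higher with shEZH2 against shBMI1. With shEZH2 against shGFP all 6 values were positive, between 0.02 and 0.20, with a median of 0.12 against -0.01 over all genes. The highest was that of CDC42BPB (0.20 ± 0.08, adjusted p = 0.289). The share of all genes with a positive value was not counted. With shBMI1 against shGFP the 6 values lay between -0.06 and 0.22, with a median of 0.01.

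Genes next to the 3 on their chromosomes did not pass in any tested comparison, and few genes did. With shEZH2 against shGFP 0.558% of all genes were higher and 0.175% lower. With shBMI1 against shGFP 0% passed, and 0.692% were higher with shEZH2 against shBMI1. Beside LURAP1L, the pigment gene TYRP1 was at -0.01 with shEZH2 and 0.12 with shBMI1, each against shGFP (adjusted p = 0.975 and 0.999), and the scaffold gene MPDZ at -0.05 and 0.09 (adjusted p = 0.883 and 0.999). TYRP1 was dim, with a mean level of 4.25, below the array medians of 5.49 to 5.52, so its values say little. Beside HEPHL1, the channel gene PANX1, 14.6 kb away, was at 0.26 with shEZH2 (adjusted p = 0.231) and 0.00 with shBMI1, and VSTM5 at 0.17 and 0.02. Beside CACHD1, the kinase gene JAK1 was at 0.18 and -0.02 and UBE2U at -0.25 and -0.33 (adjusted p = 0.384, 0.999, 0.553 and 0.939). These are the nearest measured protein-coding genes, and closer genes may be unnamed here. LURAP1L-AS1, an antisense RNA gene at chr9:12699999-12814389, overlaps LURAP1L and was not analysed here, and its part in the LURAP1L signal was not tested.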

How the data were processed

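Expression was measured on 8 whole-transcript arrays of biotin-labelled RNA, 2 per hairpin, and grouped by the shRNA label. Each probe set has 1 log2 value per array, computed by the authors with RMA according to the submitters' processing notes. These also name limma. The tool versions, the probe set library and the build were not given in the sources used here. Differences of dim probe sets are compressed by RMA.

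The table held 53617 probe sets. The annotation used gave 16098 of them 1 symbol, gave 0 several and left 37519 unnamed. The probe set with the highest mean was taken per gene, and each of the 3 genes had 1. All 14884 genes were fitted with limma 3.58.1 (R 4.3.3) over the 8 arrays with a mean per group, 4 residual degrees of freedom and Benjamini-Hochberg adjustment within each comparison, two-sided, at 0.05. With 2 arrays against 2 an exact permutation test cannot go below p = 0.333. The number of arrays limits precision. The fit was tested on simulated data.

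The members and lists were chosen with earlier results of these data known. Named were the members, the fixed relatives, the 3 largest absolute differences of each pathway list with shEZH2 and with shBMI1, the 5 most alike genes and the nearest measured neighbours. DCN, MLANA and the markers were named from marker lists. HEPH and CP stand in the iron list too. Alternatives are in the closing section. No replicate pairing is stated in the labels.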

Additional observations from a re-analysis of the deposited data

How the results depend on the processing

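The 3 genes kept their direction under all alternatives run in the 4 comparisons they were run for, namely the 3 against shGFP and shEZH2 against shBMI1. Over the settings that leave out no array, LURAP1L passed with shEZH2 against shGFP throughout (adjusted p 2.21e-05 to 0.0434) and against shBMI1 (3.01e-05 to 0.0491). HEPHL1 missed the threshold over all probe sets, with an unmoved difference of 1.12 (adjusted p = 0.0695) against shGFP and 1.05 (0.0577) against shBMI1. That setting fits all 53617 probe sets, so the moderated spread and the number of tests both differ. Which of them moved the call was not tested. CACHD1 did not pass with shBMI1 (adjusted p 0.145 to 0.959), shEZH2 against shGFP (0.125 to 0.476) or shEZH2 against shBMI1 (0.111 to 0.484).

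Leaving out each array in turn gave, with shEZH2 against shGFP, 1.358 to 1.385 for LURAP1L and 1.06 to 1.177 for HEPHL1, and against shBMI1 1.219 to 1.308 and 0.989 to 1.112. With shRING1B against shGFP it gave 0.662 to 0.851 for LURAP1L and 0.636 to 0.755 for CACHD1. With shBMI1 against shGFP, where 0 of the 3 passed, it gave 0.063 to 0.153 for LURAP1L, 0.007 to 0.129 for HEPHL1 and 0.442 to 0.561 for CACHD1. The count of genes that passed was 0 to 91 with shEZH2 against shGFP (0 without either shEZH2 array, 19 without shGFP replicate 1 and 6 without shGFP replicate 2) and 2 to 106 against shBMI1 (2 and 11 without shEZH2 replicate 1 and 2, 18 and 35 without shBMI1 replicate 1 and 2).

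That count, 109 with shEZH2 against shGFP and 145 against shBMI1, was 39 and 57 with only the 4 arrays compared, 409 and 445 without the dimmest 30% of genes, 4 and 9 over all probe sets, 648 and 640 with a trended robust variance, and 169 and 320 over protein-coding genes. It was 174 with array weights against shGFP. Of the 409 and 648 genes, 222 and 281 were higher. The cause of these changes was not tested. With shBMI1 against shGFP it was 0 throughout.

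The labels number the arrays 1 and 2 in each group without saying that a number marks a shared batch. The deviations of same-numbered arrays correlated at 0.001 to 0.248 between groups and over 0.1 in 2 of 6 pairs of groups, so the numbers were not taken as pairs. With the replicate number as a block, 108 genes passed with shEZH2 against shGFP, 131 against shBMI1 and 0 with shBMI1 against shGFP. LURAP1L was at 1.37 with that replicate block (adjusted p = 0.00394) and HEPHL1 at 1.12 (0.00726) with shEZH2 against shGFP. Of the calls followed through the alternatives, the block ended that of the marker MLANA (0.0638). Median centring moved the median of all genes by at most 0.028 in any comparison.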
